A study of Danio rerio with 2 samples.

Results

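The cells described here were sorted from zebrafish trunks and carried transcripts of and2, which encodes an actinodin of the fin fold fibrils, of fgfbp2b, an FGF-binding protein, of tgfbi, a secreted matrix protein, or of ecrg4a, the precursor of a secreted peptide. A cell was taken when its UMIs (unique molecular identifiers, 1 for each counted transcript molecule) of these genes summed to at least 5, and when it held under 10 UMIs of pnp4a, under 5 of gch2 and pts together and under 30 of dct, tyrp1b and pmela together per 10,000 UMIs, limits that left out pigment cells. By this rule 334 of 11283 cells were taken (2.96%, exact 95% interval 2.66 to 3.29), namely 122 of 4488 cells in the DMSO library (2.72%, 2.26 to 3.24) and 212 of 6795 in the CVT-10216 library (3.12%, 2.72 to 3.56). They had been labelled fin and skeletal mesenchyme cells, and the label fitted only some of them: 105 of the 334 carried keratins and other epithelial markers. In the 79 of those that held and2, the mesenchymal transcription factors prrx1a, prrx1b, twist1a and tbx5a had 2, 1, 1 and 0 UMIs. By the detection limits given below, the same 79 cells showed 7 of 27 sclerotome and fibroblast markers, all matrix genes such as col1a1a and col1a2. They also showed 7 of 19 fin markers, among them msx1b and msx2b, so markers of the label went both ways in them. Cells are therefore called here by the genes that set them apart.

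Both libraries came from 72 hpf embryos (hours post-fertilisation) of the line Tg(crestin:mCherry;mitfa:GFP), in which the promoter of mitfa, a melanocyte gene, drives GFP and regulatory sequence of crestin, a neural crest gene, drives mCherry. From 24 hpf the embryos received MoTP, a compound that kills melanin-making cells, together with either DMSO or CVT-10216, an inhibitor of the aldehyde dehydrogenase Aldh2, and MoTP was washed out at 64 hpf. Trunks were dissected 8 h later, and GFP-positive, mCherry-positive and double-positive cells were sorted together from pooled embryos into 1 droplet library per treatment, so that both groups share MoTP and no comparison between them has a replicate. Intervals below are exact and cover counting error only, since cells of 1 library are not replicates.

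Fish fins begin as folds of epidermis that mesenchymal cells invade along stiff fibrils, the actinotrichia, which are built from actinodins and fibrillar collagens. In zebrafish, actinodin genes are known both from the mesenchyme of the fin fold and from its apical epidermis. Skeletal mesenchyme gives rise to cartilage, whose matrix is built around collagens II, IX and XI, aggrecan and matrilins under the transcription factors Sox9, Sox5 and Sox6, and to tendon, bone and the fibroblasts of connective tissue.

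The median depth was 9992 UMIs and 2243 genes per taken cell, against 9063 UMIs in the 10949 other cells, and it was 9493 UMIs in DMSO and 10589 in CVT-10216. Only 4 barcodes occurred in both libraries and none of them belonged to a taken cell. No doublet caller was run. Outside the filter, another 20 barcodes of the unfiltered table met the rule, at a median of 819 UMIs.

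Each cell usually met the rule through a single gene. At 5 UMIs or more, 232 of the 334 cells held 1 of the rule genes, 41 held a pair, 49 held 3, none held all 4, and 12 reached the limit only by summing. The cells carried by and2 alone numbered 109, those carried by tgfbi alone 53, those by fgfbp2b alone 39 and those by ecrg4a alone 31, so the rule joined cells that shared few of its genes. Just outside the limit, 70 cells held 3 or 4 rule UMIs, and their median for a list of sclerotome and fibroblast genes was 40.5 UMIs per 10,000, against 77.3 in the 35 cells with 5 or 6 and 142 over all taken cells. The lists used throughout are of named genes with known roles and were chosen with earlier results of these data known.

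Levels are given in CPM (UMIs per 1000000 UMIs, summed over the cells of a group), and a pair of values that follows a level in parentheses is that level in the DMSO library and then in the CVT-10216 library. Levels are comparable between groups for a gene, and not between genes. In these units and2 stood at 7787 CPM (7721 and 7818) in the taken cells and at 23.1 in all others. The level of ecrg4a was 1080.0 CPM (930.0 and 1151) against 6.98, that of tgfbi 478 CPM (488 and 473) against 8.00, and that of fgfbp2b 437 CPM (517 and 399) against 1.75. The cells were selected on the UMIs of these 4 genes and of the pigment genes, so these values are a description of the rule. The cartilage collagen gene col2a1a stood at 852 CPM (1216 and 679) against 27.6, and col9a2 at 282 CPM (339.8 and 255) against 6.91.

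Transcripts of and2 and of the cartilage collagens hardly met in the same cell. With limits of 5 UMIs per 10,000, 173 cells held and2 alone (51.8%, 46.3 to 57.3, with 66 in DMSO and 107 in CVT-10216), 55 held col2a1a and col9a2 alone (20 and 35), 103 held neither and 3 held both. Among the 3, the median depth was 1696 UMIs. Cells with any UMI of and2 and any of the collagens numbered 3, while 143 cells had no and2 UMI and 256 had no UMI of either collagen. Between 2 and 10 per 10,000 lay 17 cells by and2, on which cells were also chosen, and 25 by the collagens. Over the 334 cells, which share 2 libraries, the Spearman correlation of and2 with the summed collagens was −0.54. Cells were chosen on and2 or on other genes, which can by itself lower such a correlation, so the value only describes the chosen cells.

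**Figure D1:**
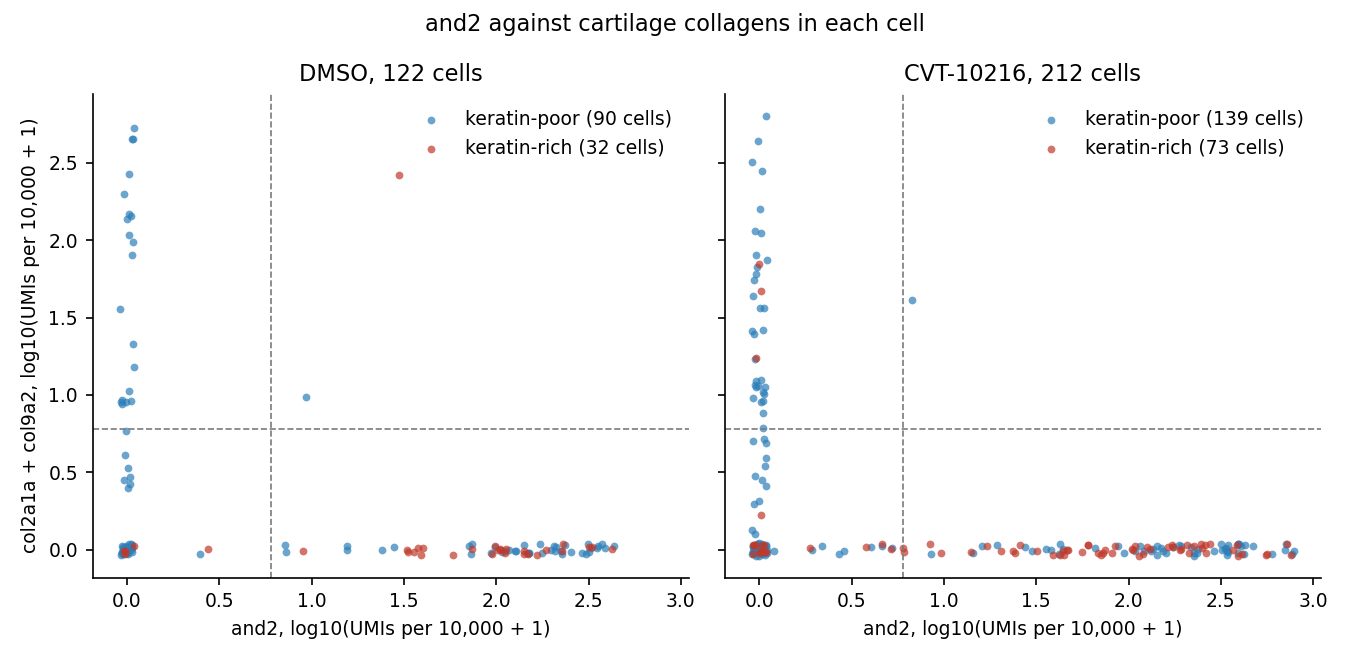
Each point is 1 taken cell, with and2 on the horizontal axis and summed col2a1a and col9a2 on the vertical axis, both as log10 of UMIs per 10,000 plus 1, in DMSO (122 cells, left) and CVT-10216 (212 cells, right). Dashed lines mark 5 UMIs per 10,000; cells lie along one axis or the other, 3 cells lie above both limits, and keratin-rich cells (red) lie mostly along the and2 axis.

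Matrix genes were among those that followed and2 from cell to cell. Among 4092 genes with a UMI in enough cells, the highest Spearman correlations with and2 over the 334 cells were those of the actinodin and1 (0.82), col1a1a, a chain of collagen I (0.72), vcanb, a versican (0.71), msx2b, a homeobox gene of fin outgrowth (0.71) and capn12, a calpain (0.67). With col9a2 they were those of col2a1a (0.76), fgfbp2b (0.53), fibina, the fin bud initiation factor gene (0.46), cdh11, the mesenchymal cadherin (0.45), and krt18a.1, a simple-epithelium keratin (0.39). These figures describe the chosen cells, whose selection on the rule genes, shared libraries and depth enter them.

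Another separation ran through the and2 cells themselves. Summed over 12 epithelial genes (the keratins krt4, krt5, krt17 and cyt1, the claudins cldnb, cldne and cldni, and epcam, cdh1, tp63, agr1 and anxa1c), 170 of the 334 cells held under 1 UMI per 10,000 and 94 held at least 100, while 3 cells held 5 to 10, 15 cells 10 to 50 and 4 cells 50 to 100. A limit of 20 per 10,000, chosen after the values were seen, gave 105 keratin-rich cells with a median of 558 per 10,000 and 229 keratin-poor cells with a median of 0. Limits of 10 and 50 gave 113 and 98 keratin-rich cells. Of the 173 and2 cells, 79 were keratin-rich (26 in DMSO, 53 in CVT-10216) and 94 keratin-poor (40 and 54). Of the 55 collagen cells 3 were keratin-rich, and the 103 cells with neither split into 22 keratin-rich (5 and 17) and 81 keratin-poor (29 and 52), called the remaining cells here. In the other direction, 61 keratin-rich cells of the series lay outside the taken cells.

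Depth went with the keratins: the median was 15126 UMIs in keratin-rich and2 cells and 17427.5 in keratin-rich remaining cells, against 8200 in keratin-poor and2 cells, 7890 in collagen cells and 9599 in keratin-poor remaining cells. Whether cells of different kinds captured together entered the keratin-rich cells was not tested. As measurements, tbx5a had 0 UMIs in the keratin-rich and2 cells against 142 in the keratin-poor ones, hoxa13b had 8 against 428, and c1qtnf5, a secreted C1q-related protein, 5 against 966, while and3 had 9507 against 72. The share of keratin-rich cells was 55.8% of the 43 cells with and2 from 5 to 50 per 10,000, 52.9% of the 68 from 50 to 200 and 30.8% of the 65 from 200 upward.

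**Figure D2:**
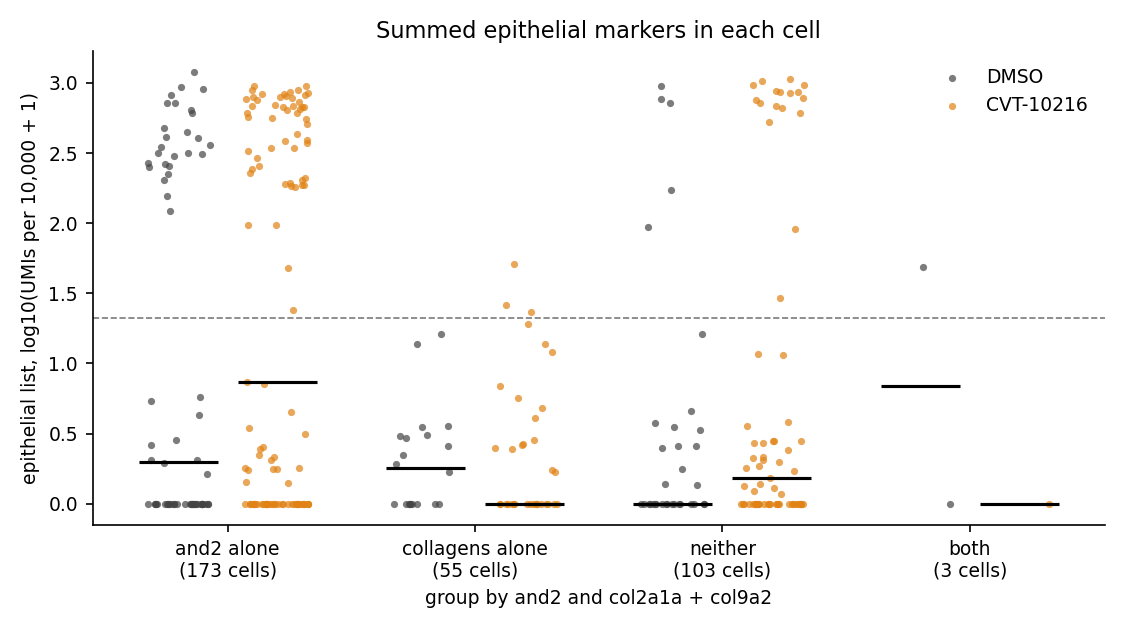
Each point is 1 cell, with the summed UMIs of the 12 epithelial genes per 10,000 (log10 of the value plus 1) on the vertical axis, by group and by library (grey, DMSO; orange, CVT-10216); bars are medians. The dashed line marks 20 per 10,000, and both libraries show and2 cells on either side of it, with few cells in between.

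Against all other cells, genes of fin, cartilage, connective tissue matrix and epidermis were higher in the taken cells. At a ratio of 4 or more and 50 UMIs or more over both sets, 1396 of 17397 genes were higher (8.02%) and 1189 lower (6.83%); 1108 of the 1396 and 455 of the 1189 passed the fold in each library on its own. The log2 ratios below are of CPM with 0.5 UMI added to each sum, and 95% intervals are given in parentheses. Since the same cells chose the genes of the rule, none of these ratios is a test. Over all genes with at least 10 UMIs the median log2 ratio was −0.23.

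The actinodin and1 stood at 3263 CPM (4090.0 and 2869.7) in the taken cells and 8.96 in the others, a log2 ratio of 8.51 (8.43 to 8.59) that was 9.21 in DMSO and 8.11 in CVT-10216. For and3 the levels were 2109 CPM (2961 and 1704) and 5.55 (log2 8.57, 8.46 to 8.68), and for c1qtnf5 222 CPM (282 and 193) and 1.36 (log2 7.34, 7.12 to 7.58). These genes were higher in both libraries. Among genes with 100 UMIs and a UMI in 20% of the taken cells, the largest ratio was that of si:dkey-248g15.3, a gene with no given role (log2 8.75, 8.65 to 8.86), and si:ch211-76l23.4, also without one, reached 7.49 (7.26 to 7.73). Of genes outside the actinodins, egfl6, a secreted EGF-repeat protein of basement membranes, reached log2 7.27 (7.12 to 7.43), epgn, an EGF-family ligand, 7.17 (6.91 to 7.45), and capn12 6.93 (6.67 to 7.202). The collagen I gene col1a1a stood at 10020.4 CPM (10995 and 9557) against 85.3 (log2 6.88, 6.85 to 6.91), hpdb, an enzyme of tyrosine breakdown, at log2 6.87 (6.74 to 7.01), and vcanb at 6.85 (6.76 to 6.95). For col9a2 and col2a1a the log2 ratios were 5.35 (5.23 to 5.47) and 4.95 (4.88 to 5.01). The 30 leading genes did not come from one kind of cell: 15 were highest in keratin-rich and2 cells, 9 in keratin-poor and2 cells, 5 in keratin-rich remaining cells and 1, fgfbp2b, in collagen cells. Without the keratin-rich cells, krt17, cldn1 and cldni were lower in the taken cells than in the others, at log2 −0.33, −1.50 and −1.63.

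By list, 17 of 18 fin fold and fin bud genes with enough UMIs were higher in the taken cells (median log2 4.54), 21 of 25 cartilage genes (4.89), 11 of 12 tendon genes (3.32), 21 of 25 sclerotome and fibroblast genes (3.52) and 11 of 12 epithelial genes (4.99), each with 0 lower. The fin list holds and2, whose call follows from the rule, and genes that go with and2 from cell to cell, such as and1. That list was not counted without them, so its count describes the rule in part. Matrix families were higher as well: 12 of 14 fibrillar collagens, 20 of 28 other collagens, 43 of 56 matrix glycoproteins and proteoglycans, 19 of 35 genes of collagen processing and 11 of 21 matrix proteases and inhibitors, again with none lower. Signalling genes followed in part, with 9 of 15 Hedgehog, 23 of 45 BMP and TGF-beta, 17 of 31 Wnt and 10 of 26 FGF genes higher, 1 Wnt gene (dkk3a) and 1 FGF gene (fgfbp3) lower. Of 84 mesenchymal transcription factors 43 were higher and 6 lower (alx4b, alx1, tfap2b, pax3a, ebf2 and alx4a). Over all genes, beside which each list count here stands, 8.02% were higher and 6.83% lower. The share of lower mesenchymal transcription factors was thus close to that of all genes. None of 5 blood, 10 skeletal muscle and 9 neuronal markers was called in either direction, and 1 of 7 macrophage genes, marco, was lower. Of 8 endothelial genes 2 were higher (fli1a and etv2) and 1 lower (clec14a), of 7 osteoblast genes 3 higher (spp1, sp7 and panx3) and 1 lower (entpd5a), and of 9 mural cell genes 3 higher (foxf1, pdgfrb and cspg4) and 0 lower.

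The groups within the taken cells carried these lists unevenly. The groups were cut on and2 of the fin list, on col2a1a and col9a2 of the cartilage list and on the epithelial list itself. Those genes stayed in the sums and marker counts below, which therefore describe the cut in part. A fin list was summed to 287 UMIs per 10,000 in keratin-rich and2 cells, 222 in keratin-poor and2 cells, 7.09 in collagen cells and 1.36 in other cells. The cartilage list reached 187 in collagen cells against 18.2, 18.5, 43.0 and 20.5 in the other 4 groups in the order keratin-rich and2, keratin-poor and2, keratin-rich remaining and keratin-poor remaining. A list of epithelial genes held 511 in keratin-rich and2 cells and 656 in keratin-rich remaining cells, against 0.80 in keratin-poor and2 cells. At a UMI in 25% of cells and a level 2-fold over the other cells, keratin-poor and2 cells showed 15 of the 19 fin markers in the files and 0 of 12 epithelial ones, keratin-rich and2 cells 7 and 8, collagen cells 16 of 27 cartilage markers, and keratin-poor remaining cells 17 of 27 sclerotome and fibroblast markers, of which collagen cells showed 15 and keratin-poor and2 cells 13.

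**Figure D3:**
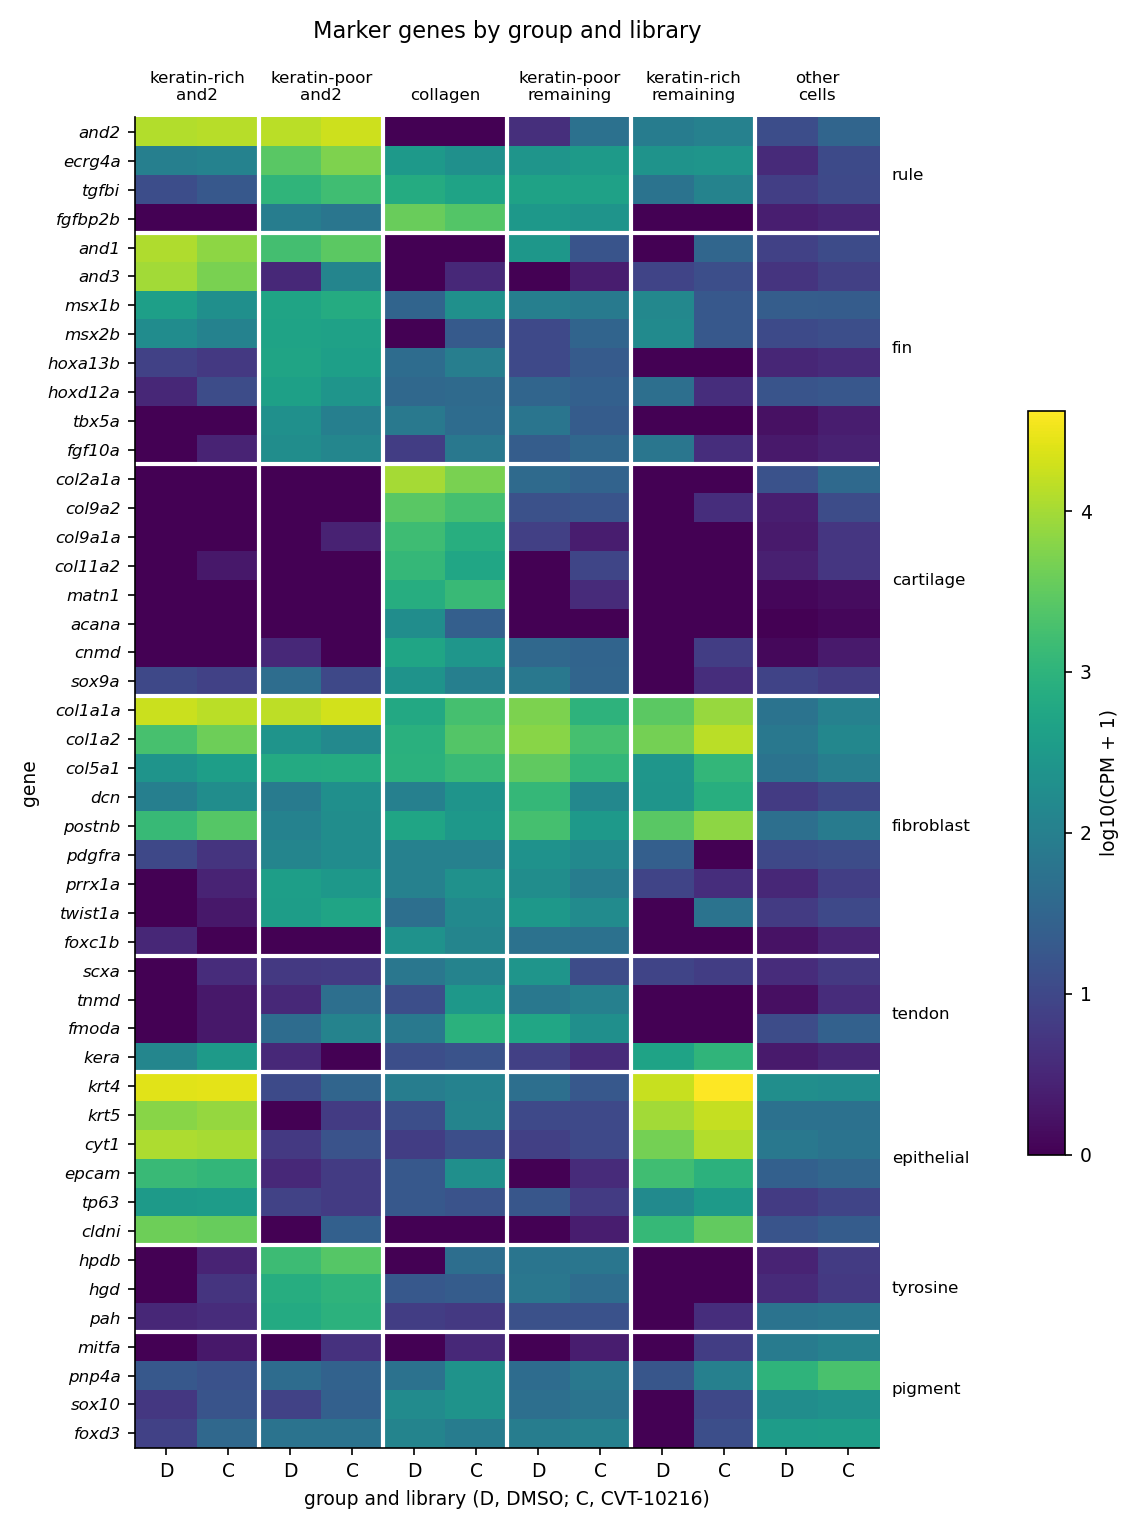
Marker genes (rows, by role) in each group and library (columns; D, DMSO; C, CVT-10216), coloured by log10 of CPM plus 1, from 0 (dark) upward. Rows for cartilage collagens are dark in both and2 groups, rows for keratins are bright in the 2 keratin-rich groups, and tbx5a, prrx1a and twist1a are bright in keratin-poor and2 cells and dark in keratin-rich and2 cells.

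Between and2 cells and collagen cells, whose groups were cut on these genes, 826 of 5336 genes were higher in and2 cells (15.5%) and 663 higher in collagen cells (12.4%), at a ratio of 2 or more with an interval that excluded equality. Scaling with TMM factors, which assume that most genes do not differ, moved every log2 ratio by 0.40 and gave 1128 and 342, so the split of calls went from 55.5% to 76.7% higher in and2 cells. In each library on its own, 616 of the 826 and 363 of the 663 passed the fold. Of the 584982 UMIs of the collagen cells, 112330 lay in 1 CVT-10216 cell, which enters every level of that group. With no and2 UMI in collagen cells, and2 was at least 2825-fold higher in and2 cells, counted against a floor of 3 UMIs over the group, and and1 at least 1178-fold. In the opposite direction col2a1a was at least 5148-fold higher in collagen cells, col9a2 at least 1699-fold and matn1, a cartilage matrilin, at least 973-fold. Of 20 cartilage genes 18 were higher in collagen cells and 0 in and2 cells (median log2 −6.58, against −0.29 over all genes), and of 16 posterior Hox genes, paralogues 9 to 13, 13 were higher in and2 cells and 0 in collagen cells. Under TMM scaling those counts were 17 and 0 and 15 and 0. Of the genes of the fin list, 13 of 17 were higher in and2 cells. These lists include and2, col2a1a and col9a2, whose calls follow from the cut of the groups.

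Since keratin-rich and keratin-poor cells were mixed among the and2 cells, the keratin-poor and2 cells were set against the collagen cells on their own, a comparison added after the values were seen. There, 461 of 3528 genes were higher in and2 cells (13.1%) and 285 in collagen cells (8.08%). Of these, 286 and 174 passed the fold in each library. The fin and cartilage lists hold and2, col2a1a and col9a2, on which these groups were cut, so the calls of those genes follow from the cut. List counts without them were not computed. The directions were those of fin against cartilage: 14 of 16 fin genes higher and none lower (median log2 3.14), 14 of 14 posterior Hox genes higher (3.42), 16 of 20 cartilage genes lower and 1, hapln1b, higher (−6.95), and 5 of 6 tendon genes lower. Of 4 epithelial genes with enough UMIs all 4 were lower in the and2 cells (cldnb, epcam, krt5 and krt4), from which keratin-rich cells had been removed by that list. The collagen cells included 3 keratin-rich cells, and 1 cell each held 45 of the 53 krt5 UMIs and 24 of the 61 krt4 UMIs there. Of the fibrillar collagens, col1a1a and col5a2a were higher in and2 cells and 8 of 11 were lower. Among fibrillar collagens, col2a1a cut the groups, and the genes of collagens II and XI also stand in the cartilage list. The count of fibrillar collagens is therefore not separate from that of the cartilage list.

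Keratin-poor and2 cells expressed the transcription factors of fin buds. The level of hoxa13b, a Hox gene of the distal fin, was 444 CPM (503 and 401), against 80.3 in collagen cells, 5.43 in keratin-rich and2 cells and 2.50 in other cells. For tbx5a, the pectoral fin initiator, it was 147 CPM (212 and 99.3) against 51.3 in collagen cells, and for fgf10a, the mesenchymal ligand of fin outgrowth, 153 CPM (181 and 132) against 51.3. Homeobox genes msx1b and msx2b stood at 604 CPM (491 and 688) and 453 CPM (479 and 433), and the T-box gene tbx18 at 157 CPM (149 and 163). In both libraries each of these levels exceeded that of the collagen cells of the same library. Genes of mesenchyme more widely, prrx1a (337 CPM, 398 and 293 by library), prrx1b (336 CPM, 329.6 and 341 by library) and twist1a (444 CPM, 378 and 493 by library), were also high there, and in keratin-rich and2 cells they stood at 1.36, 0.679 and 0.679 CPM.

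Against other cells, 5 of 23 Hox genes of paralogues 9 to 13 were called higher in the taken cells (hoxa13b, hoxa13a, hoxd13a, hoxd12a and hoxa11b) and 0 lower, beside 8.02% and 6.83% of all genes. Of 24 genes of paralogues 1 to 8, 0 were higher and 2 lower (hoxa5a and hoxb5b), a share close to that of all genes. In keratin-poor and2 cells hoxa11b stood at 500.4 CPM (579 and 443), hoxd12a at 327 CPM (418 and 260.1), hoxa13a at 127 CPM (144 and 114) and hoxd13a at 112 CPM (166 and 72.2). The same genes stood at 63.2, 37.6, 8.55 and 11.97 CPM in collagen cells and at 21.7, 8.15, 4.08 and 4.76 CPM in keratin-rich and2 cells. Unlike these, hoxc10a was present in both and2 groups, at 46.9 CPM (49.6 and 45.7) in keratin-rich and 75.8 CPM (39.1 and 103) in keratin-poor and2 cells. Anterior genes went both ways, and of 12 set between keratin-poor and2 and collagen cells 5 were higher in the and2 cells (hoxb7a, hoxc8a, hoxc1a, hoxc3a and hoxa4a) and 1 lower (hoxb6a). Of others, hoxa2b, a Hox gene of the hindbrain and second pharyngeal arch, reached 61.5 CPM (42.3 and 69.1) in collagen cells and hoxb3a 319 CPM (351 and 306) in keratin-poor remaining cells, and hoxb5b was at 349 CPM in other cells and 73.7 in the taken ones.

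**Figure D4:**
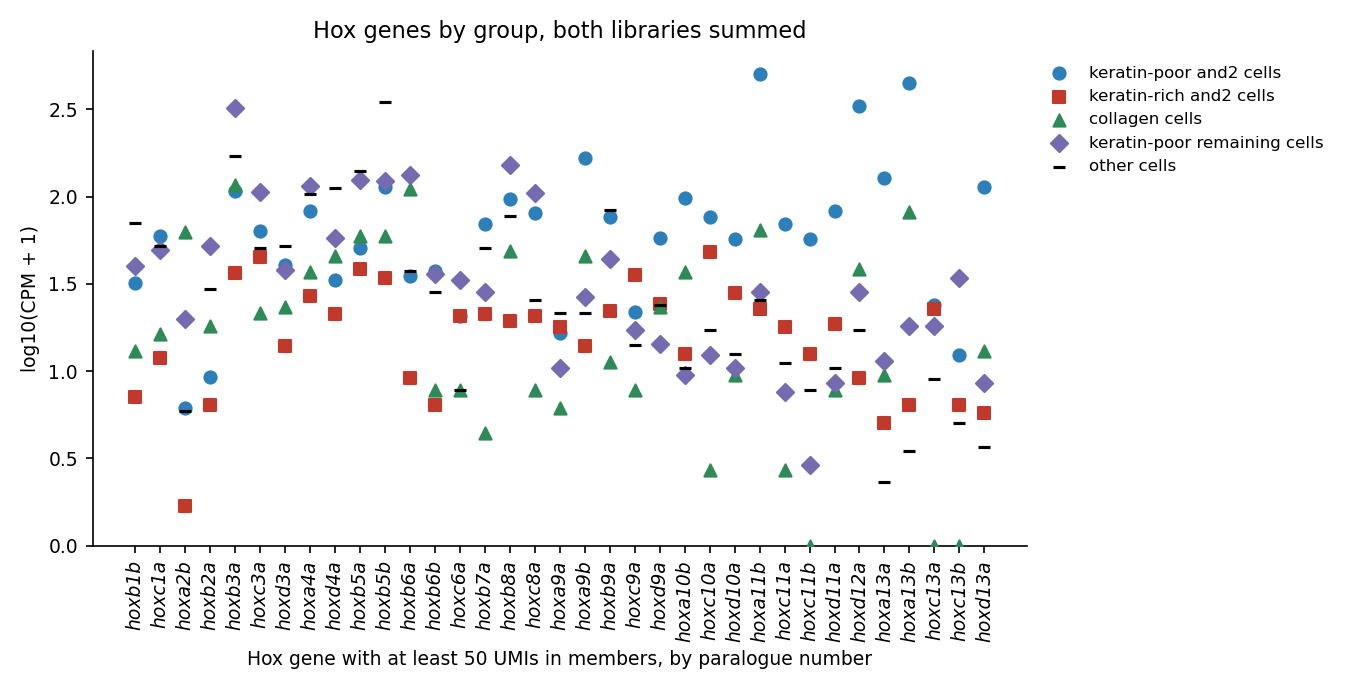
Levels of Hox genes with at least 50 UMIs in the taken cells, ordered by paralogue number along the horizontal axis, as log10 of CPM plus 1 with both libraries summed, for 4 groups and for other cells (dashes). Keratin-poor and2 cells (blue) lie highest from hoxa9b to hoxd13a for most genes, and keratin-poor remaining cells (violet) lie above the other groups at hoxb3a and hoxb8a.

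A set of metabolic genes was high in keratin-poor and2 cells and much lower in the other 4 groups. The uncoupling protein gene ucp1 stood at 1457 CPM (1011 and 1786) there, with 1 UMI in collagen cells and none in the other 3 groups. Enzymes of phenylalanine and tyrosine breakdown had the same pattern: hpdb was at 2092 CPM (1489 and 2538) against 32.5 CPM in collagen cells and 1.36 in keratin-rich and2 cells, hgd at 904 CPM (759 and 1011) against 20.5 and 2.72, and pah at 815 CPM (657 and 932) against 5.13 and 2.72. In other cells hpdb stood at 3.94 CPM, hgd at 3.99 and pah at 61.7. Further genes of this kind were c1qtnf5 (1003 CPM, 969 and 1028 by library), ttc36, a tetratricopeptide repeat gene (803 CPM, 671 and 899 by library), fgfbp2a, a paralogue of the rule gene (413 CPM, 259 and 527 by library), ptx3a, a pentraxin (316 CPM, 293 and 332 by library), and zic2a, a zinc-finger gene (293 CPM, 354 and 247 by library). Each was among the 25 genes with the largest ratios of this group over other cells except pah, and apart from hpdb and c1qtnf5 they were chosen after their values were seen.

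Some signalling genes of the fin were higher in keratin-poor and2 cells than in collagen cells, while the pathway lists went both ways. The Hedgehog ligand shhb was at 113 CPM (125 and 105) and shha at 71.6 CPM (78.1 and 66.8), both at 0 in collagen cells. Feedback targets of FGF signalling, spry4 (498 CPM, 437 and 544 by library) and dusp6 (281 CPM, 295 and 271 by library), stood at 144 and 97.4 CPM in collagen cells, and axin2, a target of Wnt signalling, at 146 CPM (132 and 157) against 52.99. For bmp2a, a BMP ligand, the level was 115 CPM (107 and 121) against 30.8. Of 27 BMP and TGF-beta genes 5 were higher in the and2 cells and 7 lower, and of 6 genes of the Hedgehog list, which did not include shhb, 1 was higher (shha) and 1 lower (gas1b), beside 13.1% and 8.08% of all genes. Of 18 FGF genes tested between keratin-poor and2 and collagen cells 6 were higher and 4 lower, the latter including the receptors fgfr2 and fgfr3, and of 24 genes of collagen processing 6 were higher (among them creb3l1, a transcription factor of collagen secretion, and bmp1a, a procollagen protease) and 2 lower, the latter close to the share of all genes. Retinoid genes differed in kind, with crabp2a, a retinoic acid binding protein, at 375 CPM (381 and 370.3) against 13.7 and cyp26b1, a retinoic acid hydroxylase, at 172 CPM (134 and 200.5) against 316.

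Keratin-rich and2 cells held and2 and col1a1a at levels near those of the keratin-poor ones, and more and1. Most of the fin and mesenchymal transcription factors measured were lower in the keratin-rich and2 cells. Keratin-rich and2 cells held and2 at 13008 CPM (12435 and 13255) and keratin-poor and2 cells at 16747 CPM (14076 and 18722). Per cell, and2 ran from 5.22 to 771 UMIs per 10,000 in the former with a median of 109, and from 6.23 to 845 in the latter with a median of 174, so the groups overlapped over nearly their whole range. The level of and1 was 8413 CPM (11698 and 6995) against 2423 CPM (1741 and 2928), and that of and3 6458 CPM (9774 and 5028) against 74.7 CPM (2.44 and 128). Collagen I chain genes went apart: col1a1a stood at 15094 CPM (18287 and 13716) against 17701 CPM (14538 and 20041), whereas col1a2 stood at 3339 CPM (1882 and 3968) against 193 CPM (251 and 149.9). Of the rule genes, tgfbi was at 15.6 against 1364 CPM and ecrg4a at 107 against 4319.9 CPM, and in 67 of the 79 cells and2 was the only rule gene that reached 5 UMIs.

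Between the keratin-rich and keratin-poor and2 cells, 599 of 4367 genes were higher in the former (13.7%) and 1305 lower (29.9%). With TMM factors every log2 ratio rose by 0.67, the counts became 871 and 567, and the share of higher calls went from 31.5% to 60.6%, so the balance of directions over all genes turned with the scaling. This comparison was added after the values were seen, and the epithelial list, which cut the groups, is given only as a description. That list held 12 of 12 genes higher (median log2 7.70). Of the fin list 3 genes were higher (and3, fras1 and and1) and 12 of 17 lower, of 16 posterior Hox genes 13 were lower and 0 higher (11 and 1 under TMM scaling), and of 38 mesenchymal transcription factors 26 were lower and 4 higher, among them dlx4a, dlx5a and zfhx3. Genes of collagen processing were lower in 15 of 23 cases and higher in 0, and under TMM scaling in 7.

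Epidermal and basement membrane genes filled the other side. Among the keratins, krt4 stood at 26938 CPM (25566 and 27531) against 21.8 CPM in keratin-poor and2 cells, krt5 at 7313 CPM (6366 and 7722) against 3.11, and krt97 at 2844 CPM (3491 and 2564) against 1.04. The claudin cldni was at 3660.1 CPM (3973 and 3525) against 14.5, the epithelial adhesion gene epcam at 1209.8 CPM (1352 and 1148) against 4.15, and tp63, the transcription factor of basal epidermis, at 351 CPM (327 and 362) against 6.23. Genes of the dermal-epidermal junction were frem2a (1080.1 CPM, 1122 and 1062 by library, against 15.6) and fras1 (249 CPM, 306 and 225 by library, against 6.23), whose loss blisters the fin fold in zebrafish, col17a1a of the hemidesmosome (387 CPM, 232 and 454 by library, against 1.04) and the collagen IV gene col4a4 (148 CPM, 149 and 148 by library, against none). The retinol carrier rbp4 stood at 13369 CPM (10454 and 14626) against 59.2.

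Genes known from the apical ridge of fin buds were found in the same cells at lower counts. The bHLH gene bhlha9 had 126 UMIs in keratin-rich and2 cells (85.6 CPM, 101 and 78.8 by library), none in the other 4 groups and 6 in the other cells. For fgf8a, a ridge ligand, the level was 103 CPM (119 and 96.3) against 1.04 CPM in keratin-poor and2 cells, for fgf24 82.2 CPM (104 and 72.9) against 8.31 and for sp9, a zinc-finger gene of the ridge, 111 CPM (137 and 99.2) against 42.6. The retinoic acid hydroxylase gene cyp26c1 stood at 59.1 CPM (38.3 and 68.1) against 7.27, and adamtsl7, a matrix protein gene, at 215 CPM (288 and 183) with 0 in the other 4 groups. Of these, fgf8a, bhlha9, cyp26c1 and adamtsl7 were among the 25 genes with the largest ratios of this group over other cells.

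The 22 keratin-rich remaining cells differed from keratin-rich and2 cells in both directions among matrix genes and held few actinodin transcripts. They stood at 21364 CPM (13688 and 24249) for the basal keratin krtt1c19e, against 8636 CPM in keratin-rich and2 cells, at 738 CPM (422 and 856) against 129 for col7a1, the anchoring fibril collagen, and at 868 CPM (621 and 961) against 387 for col17a1a. For col1a2 the levels were 11406 CPM (4509 and 13997) and 3339, and for kera, a small leucine-rich proteoglycan gene, 916 CPM (486 and 1078) and 272. They held and2 at 102 CPM and and1 at 23.9 CPM. Since and2 set these groups apart, its own call in the fin list follows from the cut. Set against keratin-rich and2 cells, 134 of 3029 genes were higher (4.42%) and 298 lower (9.84%), with 7 of 8 fibrillar collagens higher and 1, col1a1a, lower, 5 of 12 other collagens higher and 3 lower, 5 of 21 matrix glycoproteins and proteoglycans higher and 10 lower, 7 of 7 fin genes lower, 10 of 16 mesenchymal transcription factors lower and 9 of 17 cell cycle genes higher. Only 5 of the 22 cells were of the DMSO library, and 56 of the 134 and 149 of the 298 passed the fold in each library.

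Collagen cells carried many cartilage matrix genes of the list. Beside col2a1a at 6342 CPM (9946 and 4920.3) and col9a2 at 2092 CPM (2725 and 1843), they held col9a1a at 998 CPM (1559 and 777), col9a3 at 1231 CPM (1928 and 956) and col11a2, a chain of collagen XI, at 725 CPM (1184 and 544). The proteoglycan genes epyc, acana (aggrecan) and matn4, a matrilin, stood at 174 CPM (302 and 124), 70.09 CPM (187 and 23.8) and 1147 CPM (1099.7 and 1166), and cnmd, the cartilage glycoprotein chondromodulin, at 344 CPM (526 and 272). The matrilin matn1 was at 1198 CPM (755 and 1373), of which 478 of 701 UMIs lay in 1 cell of the CVT-10216 library. Chondrogenic transcription factors were there at lower counts: sox9a at 137 CPM (236 and 97.7) against 23.9 CPM in keratin-poor and2 cells, sox9b at 207 CPM (259.8 and 186) against 47.8, and sox6 at 319.7 CPM (508 and 246) against 133, whereas sox5, at 174 CPM (302 and 124), was close to the 175 CPM of keratin-poor and2 cells. The forkhead genes foxc1a and foxc1b of paraxial and cranial mesenchyme stood at 83.8 CPM (96.7 and 78.7) and 157 CPM (229.6 and 129), against 0 for both in keratin-poor and2 cells.

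Not all collagen cells were alike. Per cell, col2a1a ranged from 0 to 538 UMIs per 10,000 with a median of 21.0, and its median was 66.9 in the 20 DMSO cells and 10.7 in the 35 CVT-10216 cells, with overlapping ranges. For fgfbp2b, which 44 of the 55 cells held, the median was 17.98 per 10,000, and for tgfbi, which also 44 held, 5.84. Tendon genes were uneven between libraries, as fmoda, fibromodulin, stood at 662 CPM (72.5 and 894) and tnmd, tenomodulin, at 209 CPM (12.1 and 286). The neural crest gene sox10 was at 219 CPM (169 and 238), near the 203 CPM of other cells. Keratin-poor and2 cells held it at 17.6 CPM. The crest and glia list, which includes sox10, had 32.7% of its 443 UMIs in collagen cells in 1 cell. In 4 cells at least 2 genes of the inner ear (from stm, otog, zpld1a, otofb and cabp5b) were present, and none of these had matn1. Starmaker, stm, had 479 of its 527 UMIs in 1 CVT-10216 cell.

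The 81 keratin-poor remaining cells, with neither and2 nor the cartilage collagens at the limit, were rich in connective tissue genes. They held col1a2 at 3176 CPM (6438 and 1797), dcn, decorin, at 451 CPM (1183 and 142), the collagen VI gene col6a1 at 327 CPM (663 and 185) and the receptor gene pdgfra at 176 CPM (226 and 155). Their transcription factors were barx1 (598 CPM, 284 and 731 by library), lhx6 (123 CPM, 163 and 106 by library), foxf2a (190.4 CPM, 255 and 163 by library), osr1 (154 CPM, 147 and 158 by library) and meox1, a gene of the somite (186 CPM, 469 and 66.05 by library). By those values the libraries differed for meox1 and barx1 in opposite directions. The retinaldehyde dehydrogenase gene aldh1a2 stood at 328 CPM (128 and 412), against 5.13 CPM in collagen cells, and grem2b and nog1, BMP antagonists, at 91.9 CPM (60.6 and 105) and 84.3 CPM (210.4 and 31.00). Of the osteoblast genes, sp7 stood at 42.6 CPM (9.57 and 56.6) and col10a1a at 349.6 CPM (3.19 and 496), with the lower values in DMSO. Only 3 of the 10 genes of that list had enough UMIs over both groups to be set against collagen cells. All 3 were higher in the keratin-poor remaining cells (col10a1a, phex and sp7), beside 8.18% of all genes. A gene high in either group passes that minimum more readily, so the count does not describe the whole list. No gene of the list had a UMI in 25% of the cells at a level 2-fold over the others.

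Against collagen cells, 299 of 3657 genes were higher in these remaining cells (8.18%) and 211 lower (5.77%), and 150 and 90 of them passed the fold in each library. Of 13 anterior Hox genes 9 were higher and 1, hoxa2b, lower (median log2 1.62), of 11 retinoid genes 6 were higher and 1 lower, and of 22 sclerotome and fibroblast genes 6 were higher (mfap4, col5a2a, meox1, foxf2a, dcn and postnb) and 3 lower (foxc1a, foxc1b and cthrc1a). Of 52 mesenchymal transcription factors 12 were higher and 12 lower. Of 8 neuronal genes 5 were higher, and the neuron list summed to 13.97 UMIs per 10,000 in these cells, 16.5 in keratin-poor and2 cells, 5.47 in collagen cells and 23.6 in other cells. Of the 1475 UMIs of the list in keratin-poor remaining cells, 1222 lay in 4 of the 81 cells, all of the CVT-10216 library. Without cells that held 20 or more UMIs per 10,000 of it, the list summed to 2.66 there and 4.48 in collagen cells. Whether RNA from neurons entered the keratin-poor remaining cells was not tested.

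The summed cell cycle genes were lower in both keratin-rich groups than in the other groups. The cell cycle list summed to 23.9 UMIs per 10,000 in keratin-rich and2 cells, 44.7 in keratin-rich remaining cells, 74.0 in keratin-poor and2 cells, 79.2 in keratin-poor remaining cells and 89.0 in collagen cells, against 71.7 in other cells. Of 25 genes of the list with enough UMIs, 24 were lower in keratin-rich than in keratin-poor and2 cells and 0 higher. Over all genes 29.9% were lower and 13.7% higher. Under TMM scaling 12 of the 25 were lower, beside 567 of 4367 genes in all. Between keratin-poor and2 cells and collagen cells 3 of 28 were lower (ccnb1, kif11 and rrm2) and 0 higher. Over all genes 8.08% were lower and 13.1% higher there, so the share of lower genes was close to that of all genes. Over all taken cells, none of the 38 passed 4-fold against other cells in either direction (median log2 −0.31).

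All 11 pigment cell genes were lower in the taken cells than in the others, which for pnp4a, gch2, pts, dct, tyrp1b and pmela the rule itself favoured. Of 7 crest and glia genes 4 were lower (crestin, foxd3, mbpa and sox10) and 0 higher, although sox10 in collagen cells was near its level in other cells. Over all genes 6.83% were lower and 8.02% higher. Under TMM scaling 2 of the 7 crest and glia genes were lower and 0 higher. Pigment cells stayed among the others, and their part in the levels of genes outside the rule was not tested. Among genes that the rule did not use, mitfa stood at 1.54 CPM (0 and 2.27) in the taken cells and 96.4 in others, and crestin at 4.62 CPM (1.36 and 6.17) and 36.97. The reporter transcript GFP was at 14.96 CPM (10.24 and 17.2) against 525, and a UMI of it was found in 11.4% of taken cells, 36.0% of other cells and 10.4% of 221 cells rich in macrophage genes (median depth 9992, 9063 and 11314 UMIs). After thinning to 4000 UMIs these shares were 6.02%, 26.8% and 4.06%, so the share in the taken cells was close to that in the macrophage-rich cells. Those cells were sorted with the rest, and whether they lack GFP of their own was not tested. mCherry was different between the groups, with a UMI in 26.6% of keratin-poor and2 cells (18.01 to 36.7), 1.27% of keratin-rich and2 cells and 2.26% of macrophage-rich cells, at median depths of 8200, 15126 and 11314 UMIs. Thinned, 21.7% of keratin-poor and2 cells, 0% of keratin-rich and2 cells (0 of 73 cells, exact upper bound 4.93%) and 1.02% of macrophage-rich cells kept one, and the level of mCherry in keratin-poor and2 cells was 58.1 CPM (58.6 and 57.8).

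Of 15 genes of purine synthesis 9 were lower in the taken cells than in the others and 0 higher (median log2 −2.59), beside 6.83% of all genes lower and 8.02% higher. The limits of the rule left pigment cells out of the taken cells and kept them among the others. What part of the differences in this paragraph came from that was not tested, so they describe the rule in part. For paics the levels were 53.5 CPM (36.8 and 61.4) and 649.8, and for atic 11.9 CPM (10.9 and 12.3) and 263. Of 24 genes of the one-carbon cycle 6 were lower and 0 higher, among them mthfd1b at 3.08 against 41.6 CPM. The genes of the inhibited enzyme, aldh2.1 and aldh2.2, stood at 29.3 CPM (22.5 and 32.5) and 25.5 CPM (23.9 and 26.3), against 52.6 and 59.04 CPM in other cells, and adh5, which acts on formaldehyde bound to glutathione, at 195 CPM (186 and 199) against 234. Of 23 aldehyde and alcohol dehydrogenases 1 was higher (aldh1a2) and 1 lower (aldh16a1), no more than the shares over all genes.

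Between the treatments, the 4 rule genes and both cartilage collagens stayed within a ratio of 2. The cells of both libraries were chosen on the rule genes, so that the levels of these are a description. Levels below are given for the DMSO library first and the CVT-10216 library second, and log2 ratios are of CVT-10216 over DMSO. In the taken cells and2 stood at 7721 and 7818 CPM (log2 0.02, −0.01 to 0.05), tgfbi at 488 and 473 CPM (log2 −0.05, −0.18 to 0.09) and ecrg4a at 930.0 and 1151 CPM (log2 0.31, 0.22 to 0.40). Levels of fgfbp2b were 517 and 399 CPM (log2 −0.38, −0.51 to −0.24), those of col9a2 339.8 and 255 CPM (log2 −0.42, −0.58 to −0.25) and those of col2a1a 1216 and 679 CPM (log2 −0.84, −0.93 to −0.75). At a ratio of 2, with 50 UMIs in all, 10 in each library and an interval that excluded equality, 213 of 6827 genes were higher with CVT-10216 (3.12%) and 129 lower (1.89%). No gene of the cell cycle, fibrillar collagen, one-carbon or aldehyde dehydrogenase lists passed (of 33, 12, 11 and 12 tested), and of 9 purine genes 1, adsl, was higher. These counts compare 2 libraries, with no replicate behind them.

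Many of the strongest differences between the libraries rested on 1 cell. The globin gene hbbe1.3 had a log2 ratio of 4.01 of CVT-10216 over DMSO with 98.5% of its CVT-10216 UMIs in 1 cell, and −1.72 without the top cell of each library. Muscle gene myl1 was at −3.45, and at 1.58 without the top cell of each library, and the neuropeptide gene galn, at −4.60, came to 1.04 in the same way. When the top cell of each library was left out gene by gene, 183 of the 213 higher genes and 66 of the 129 lower genes were still called. Of the 10 genes at each end, 7 of the higher and 1 of the lower were still called.

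Neuronal genes were higher with CVT-10216 in 7 of 9 cases and lower in 0 (median log2 1.86, against 0.03 over all genes). The microtubule gene stmn1b stood at 23.9 and 147 CPM (log2 2.60, 2.13 to 3.16), elavl3, an RNA-binding protein of new neurons, at 60.7 and 241 CPM (log2 1.98, 1.67 to 2.32) and snap25a, a synaptic gene, at 6.82 and 52.3 CPM (log2 2.87, 2.02 to 4.03). These transcripts lay in few cells: 18 of 212 CVT-10216 cells and 4 of 122 DMSO cells held 20 or more UMIs per 10,000 of the neuron list, and the list summed to 12.7 and 3.95 per 10,000. Without those 22 cells it summed to 2.198 and 1.77, and elavl3 and gap43 were lower with CVT-10216, at log2 −0.41 and −0.34. The parvalbumin gene pvalb2 was higher with or without its top cells (3.06, and 2.82 without the top cells), as were apodb, an apolipoprotein (2.72 and 2.35), and vim, vimentin (2.56 and 2.66).

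Some transcription factors of fin and cartilage, among them tbx5a and sox9a, and 5 immediate early and heat shock genes were lower with CVT-10216, while most members of their lists passed in neither direction. For tbx5a the levels were 80.5 and 29.6 CPM (log2 −1.44, −1.86 to −1.04), for hoxd12a 132 and 62.03 CPM (log2 −1.09, −1.39 to −0.80), for hoxd13a 60.7 and 19.5 CPM (log2 −1.64, −2.14 to −1.15) and for sox9a 57.3 and 25.01 CPM (log2 −1.196, −1.66 to −0.73). Of 63 mesenchymal transcription factors 8 were lower and 1 higher. Of 18 posterior Hox genes 3 were lower and 0 higher, and of 17 fin genes 3 were lower and 0 higher. Over all genes 1.89% were lower and 3.12% higher. Of the 129 lower calls over all genes, 66 remained without the top cell of each library. In the keratin-poor cells alone, where these genes lay, hoxd12a was at 210.1 and 104 CPM (log2 −1.02, −1.32 to −0.71) and tbx5a at 133 and 51.4 CPM (log2 −1.37, −1.78 to −0.96). Among 32 immediate early and heat shock genes 5 were lower (hsp70.3, hsp70l, egr2a, dnajb1b and hsp70.2) and 0 higher, hsp70.3 at 77.1 and 14.9 CPM (log2 −2.36, −2.90 to −1.86) and dnajb1b at 112 and 49.4 CPM (log2 −1.18, −1.51 to −0.85).

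Keratin-rich cells made up 26.2% of the taken cells in DMSO (18.7 to 35.0) and 34.4% in CVT-10216 (28.1 to 41.2), intervals that overlap, and the 2 kinds of cell were therefore also compared within themselves. In keratin-poor cells 227 of 5014 genes were higher with CVT-10216 (4.53%) and 90 lower (1.79%), and in keratin-rich cells 68 of 2993 were higher (2.27%) and 93 lower (3.11%). Scaling with TMM factors changed those to 189 and 125 (from 71.6% to 60.2% higher) and to 86 and 77 (from 42.2% to 52.8%). Without the top cell of each library, gene by gene, 187 of the 227 and 65 of the 90 were still called in keratin-poor cells. In keratin-rich cells 63 of the 68 and 23 of the 93 were, and 17 of the 93 turned in direction. At the lower end there, 9 of 10 genes had over 90% of their DMSO UMIs in 1 cell. Of 2550 genes tested in both kinds of cell, 11 were higher in each, 3 lower in each, 10 higher in keratin-poor and lower in keratin-rich cells and 4 the reverse. The glucocorticoid target fkbp5 was higher in both, at 15.7 and 43.1 CPM (log2 1.41, 0.62 to 2.39) in keratin-poor cells and 24.3 and 90.9 CPM (log2 1.86, 1.102 to 2.81) in keratin-rich cells.

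Some collagen and matrix genes were called in opposite directions in keratin-poor and keratin-rich cells, a difference that was not tested. In keratin-poor cells col1a1b stood at 1433 and 642 CPM (log2 −1.16, −1.28 to −1.04), and in keratin-rich cells at 2321 and 5492 CPM (log2 1.24, 1.16 to 1.33). For postnb, periostin, the values were 784 and 269 CPM (log2 −1.54, −1.72 to −1.37) and 1609 and 3618 CPM (log2 1.17, 1.07 to 1.27). In keratin-rich cells 5 of 9 fibrillar collagens were higher and 1 lower, and 5 of 8 sclerotome and fibroblast genes higher and 0 lower, while 5 of 22 of the latter were lower in keratin-poor cells and 0 higher. Over all genes 2.27% were higher and 3.11% lower in keratin-rich cells, and 4.53% and 1.79% in keratin-poor cells. Both lists hold genes such as col1a1a and col5a2a, so their counts are not separate. The simple-epithelium keratin krt18a.1 was at 19.1 and 255 CPM (log2 3.67, 2.88 to 4.75) in keratin-rich cells. Beside these values, keratin-rich remaining cells, which held the most col1a2, made up 5 of 32 keratin-rich cells in DMSO and 17 of 73 in CVT-10216, and the part of that composition in the ratios was not tested.

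The libraries were also compared within keratin-poor and2, collagen and keratin-poor remaining cells, of which the collagen cells included 3 keratin-rich ones. In keratin-poor and2 cells 96 of 2220 genes were higher with CVT-10216 (4.32%) and 73 lower (3.29%), and of 15 fin genes hoxd13a and tbx5a were lower and 0 higher. In collagen cells 52 of 1238 genes were higher (4.2%) and 62 lower (5.01%), with 11 of 18 cartilage genes lower and 0 higher, among them col2a1a at 9946 and 4920.3 CPM (log2 −1.02, −1.11 to −0.92), sox9a at 236 and 97.7 CPM (log2 −1.27, −1.94 to −0.60) and sox6 at 508 and 246 CPM (log2 −1.05, −1.48 to −0.61), and 3 of 11 sclerotome and fibroblast genes higher (col1a1a, col1a2 and dcn). Without the top cell of each library, gene by gene, 34 of the 52 and 47 of the 62 were still called. Of the 419489 UMIs of the CVT-10216 collagen cells, 112330 lay in 1 cell, which enters each total, and ratios without that cell were not computed. In keratin-poor remaining cells 138 of 2323 genes were higher (5.94%) and 129 lower (5.55%). There 7 of 9 fibrillar collagens and 11 of 19 sclerotome and fibroblast genes were lower and none higher, and 11 of 23 cell cycle genes were higher and 1 lower. The fibrillar collagen and the sclerotome and fibroblast lists share genes, so their counts are not separate. Each group held between 20 and 54 cells in a library, and the cells within a group were not alike, so the makeup of each group and a change within cells cannot be told apart.

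**Figure D5:**
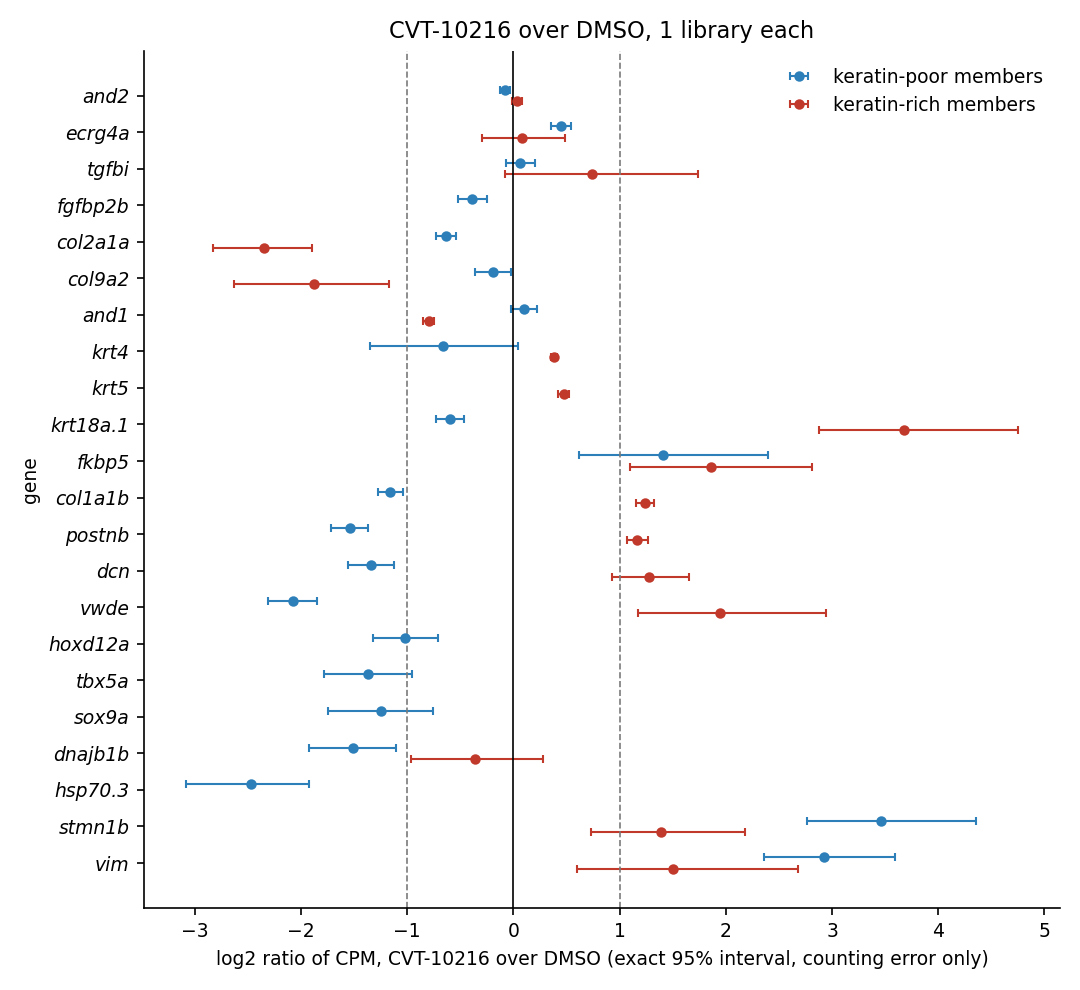
Log2 ratios of CPM of CVT-10216 over DMSO (points) with exact 95% intervals for counting error (bars), in keratin-poor (blue) and keratin-rich (red) taken cells, 1 library each; dashed lines mark a ratio of 2 in either direction, and a gene without enough UMIs in a group has no point there. Values for and2 lie near 0 in both, and col1a1b, postnb and dcn lie below −1 in keratin-poor and above 1 in keratin-rich cells.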

How the data were processed

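Both droplet libraries (Chromium 3′ chemistry) had been counted and combined by the authors with Cell Ranger (3.1.0, with 2.1.1 also named in the submitters' processing notes) on zebrafish build GRCz11. The deposited values are UMI counts per gene and barcode, not normalised, in a filtered table of 22077 genes and an unfiltered table of 25109 genes, where 2077 more barcodes lie. Whether depth was equalised between the libraries when they were combined is not given in the sources used here. The barcode suffix 1 was read as DMSO and 2 as CVT-10216.

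Counts were summed per group and divided by the group's total (CPM), and ratios took a pseudocount of 0.5 UMI with exact conditional intervals at 95%. Python 3.11.15 was used, together with pandas 2.3.3, scipy 1.17.1 and numpy 2.4.6. TMM factors came from edgeR 4.0.16. The main ratios were scaled by totals. With 1 library per treatment and cells that are not replicates, no test was run and no p-value is given. A gene was called at 4-fold with 50 UMIs between the taken and other cells, and at 2-fold with 50 UMIs and an interval that excluded equality elsewhere, with 10 UMIs in each library between the treatments. Shares of cells with a UMI were also computed after thinning to 4000 UMIs (299 taken cells reached it and 35 did not). A UMI sum of 3 was the floor for bounds. The calling was tried on simulated counts with counting error only. They held no spread between cells or libraries, so calls that rest on 1 cell were not covered.

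The members and the gene lists were chosen with earlier results of these data known. Named were the 6 genes of the rule and of the cartilage end, the 30 with the largest ratio over other cells (100 UMIs and a UMI in 20% of cells), genes of the lists by role, the 15 at each end between and2 and collagen cells, the 10 at each end between treatments and the 5 most correlated with and2 and with col9a2. Of these, genes with no given role were mostly left out. Leading genes of single groups (ucp1, ptx3a, hgd, ttc36, zic2a, krt97, bhlha9, adamtsl7, lhx6 and others), and pah, vim, apodb, fkbp5, krt18a.1, vwde and hoxc10a, were chosen after their values were seen. So were the separation of keratin-rich cells and each comparison that uses it. Doublets were not called. The alternative without the deepest 5% of cells does not replace a doublet call, since it removes cells by depth alone.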

Additional observations from a re-analysis of the deposited data

Results flagged for a closer look

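In 14 genes the ratio of CVT-10216 over DMSO passed 2-fold in opposite directions in keratin-poor and keratin-rich cells, and the difference between these ratios was not tested. In log2 units, the ratios were −1.16 for col1a1b in keratin-poor cells and 1.24 in keratin-rich cells, −1.54 and 1.17 for postnb, −1.34 and 1.27 for dcn, and −2.08 and 1.95 for vwde, a gene of a secreted von Willebrand factor domain protein. Higher in keratin-poor and lower in keratin-rich cells were the muscle genes actc1b (2.1 and −2.17), ckma (1.57 and −3.05), tpm1 (1.07 and −1.98) and tpm2 (1.56 and −3.86). The same order held for atp1b1a (1.02 and −2.18), atp2b1a (1.47 and −1.22), dlx4a (1.58 and −1.101), phlda2 (1.12 and −1.02), tmsb (2.36 and −1.02) and vipb (3.15 and −2.56). The muscle list in keratin-rich DMSO cells had 93.98% of its UMIs in 1 cell. Of the 93 genes lower with CVT-10216 in keratin-rich cells, 23 were still called without the top cell of each library.

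Outside the filter of the combined table, 20 barcodes met the rule, at a median of 819 UMIs. They entered no comparison.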

How the results depend on the processing

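Counting error sets the precision of every value, and the spread between embryos or libraries is not known from 1 library per treatment. No paired analysis was possible because each treatment has 1 library. Of the 71 main counts and shares recomputed under alternatives, 50 moved by less than 1.5 times or less than their interval and 21 moved by more. Of 3968 further counts, shares and values of lists, 3177 stayed within these limits and 791 did not. The 3177 include medians of log2 ratios over all genes, for which no limit was set. Of the named genes that were followed, 7 of 27 between treatments and 10 of 22 between and2 and collagen cells kept the same call in every alternative. Between the and2 groups 24 of 28 did, and over other cells 14 of 21.

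The rule took 200 cells with at least 2 of its genes present and 145 without cells that held 5 or more UMIs per 10,000 of another tissue's list, in place of 334. The share of cells with and2 alone or the collagens alone was 68.3% in the main setting. It was 61.7% at a limit of 10 per 10,000 and 74.9% at 2 raw UMIs. With 3 and 10 UMIs of the rule genes it was 58.4% and 79.5%, and with at least 2 rule genes 76.5%. Depth and minimum counts moved the counts of genes by their construction: thinning to 4000 UMIs gave 849 genes higher than in other cells (1396 in the main setting), 539 between and2 and collagen cells (1489), 583 between the and2 groups (1904) and 77 between treatments (342). A minimum of 200 UMIs gave 844, 452, 504 and 112, and one of 20 UMIs gave 2346 between and2 and collagen cells and 3299 between the and2 groups. Without cells of another tissue's list 466 genes differed between and2 and collagen cells and 144 between treatments. Without keratin-rich cells 742 differed between and2 and collagen cells, and without the 5% of cells with the most UMIs 218 between treatments. The comparison of the and2 groups has no value without cells of another tissue's list, since that list holds the keratins.

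Directions over other cells turned without cells of another tissue's list for and3 (log2 −1.85), epgn (−0.12), krt17 (−1.24), cldn1 (−3.15) and cldni (−4.32), and without keratin-rich cells for krt17 (−0.33), cldn1 (−1.50) and cldni (−1.63). Between and2 and collagen cells they turned in the former setting for and3 (−0.00408), cyt1 (−0.21) and krt91 (−0.21).

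Between treatments, hbbe1.3, myl1 and ttn.2 turned with at least 2 rule genes (−1.42, 2.52 and 2.57). Without cells of another tissue's list, hbbe1.3, stm, myl1, ttn.2 and gap43 turned (−2.22, −3.11, 1.2, 0.27 and −1.12). Without keratin-rich cells, myl1, ttn.2, galn and krt17 did (2.74, 0.43, 1.73 and −2.51), and without the top cell of each library hbbe1.3, myl1 and galn did (−1.72, 1.58 and 1.04). Without cells rich in neuronal genes elavl3 and gap43 turned (−0.41 and −0.34), and without the 5% deepest cells myl1 did (1.69). The settings without keratin-rich cells and without neuronal cells were chosen after seeing the data.

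TMM scaling moved all log2 ratios by 0.22 against other cells, 0.40 between and2 and collagen cells, 0.67 between the and2 groups and −0.02 between treatments. Against other cells it gave 1550 higher and 924 lower genes, and between treatments 203 and 133. The majority of a list turned under it for BMP and TGF-beta genes (4 higher and 5 lower became 5 and 3) and Wnt genes (3 and 6 became 5 and 3) between and2 and collagen cells, and for matrix glycoproteins (11 and 13 became 13 and 11) and aldehyde dehydrogenases (0 and 3 became 4 and 2) between the and2 groups.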

Other observations

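Transcripts of other tissues lay in few of the taken cells. With 20 or more UMIs per 10,000 of a list, 22 cells held neuronal genes, 13 skeletal muscle genes, 11 genes of neural crest and glia, 2 macrophage genes, 1 blood genes and 0 endothelial genes. The blood list had 868 of its 950 UMIs in a single collagen cell of the CVT-10216 library. In keratin-poor and2 cells 8 of 94 held neuronal genes at that level, and without them the list fell from 16.5 to 1.44 UMIs per 10,000.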
